A study of Rattus norvegicus with 10 samples.

Results

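Macrophages of the kidney were followed through 10 genes of the RNA-seq table, chosen by symbol: the surface and lysosomal markers *Cd68*, *Cd163*, *Mrc1*, *Adgre1*, *Cd14*, *Itgam* and *Lyz2*, the receptor *Csf1r*, and the growth factors *Csf1* and *Il34*. Each symbol matched 1 row of the 32545 genes in the table, and all 10 were among the 17631 genes averaging 0.1 FPKM or more (read counts scaled to gene length and library depth), the filter used for testing. Macrophages and their monocyte precursors depend on signalling through CSF1R, a receptor tyrosine kinase with 2 ligands, CSF1 and IL-34, which have little sequence in common. In the kidney both ligands can be made by tubule epithelium, and macrophages that accumulate around cysts are a known feature of polycystic kidney disease.

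The samples were renal cortex from male and female PCK rats, a strain that arose by spontaneous mutation of *Pkhd1*, the gene of recessive polycystic kidney disease. There were 5 males and 5 females, with 1 library per rat. All 10 rats carry the mutation, and a rat without cysts was not analysed here, so the comparison is of sex within the disease model. The study's methods give an age of 10 to 12 weeks and the sample labels 12 to 14 weeks, and the methods describe littermates from 2 litters whose members are not identified in the labels. The kidneys were flushed with saline before collection, no treatment was given, and the tissue is a mixture of all cortical cells.

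Reads on genes numbered 13912569 to 20285911 in males and 14963924 to 19556707 in females. Cortical tissue was represented by the proximal phosphate transporter *Slc34a1* at 1262 ± 292 (males) and 1253 ± 364 FPKM (females; SD, n = 5 each). Mitochondrial genes took 14.3% to 19.1% of the reads in 9 libraries and 26.8% in female 2, which stands apart from the rest. Results that rest on female 2 are therefore given with and without it.

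None of the 10 genes differed between the sexes past the study's thresholds, an adjusted p of up to 0.05 (limma, Benjamini-Hochberg) with at least a 1 log2 unit difference, against 1.32% of all genes tested. By the adjusted p alone the count was also 0, against 2.4%, with a lowest adjusted p of 0.232 in limma for *Adgre1*. At an unadjusted limma p under 0.05 there were 2 genes, *Adgre1* and *Csf1r*, both with lower means in females, where 15.7% of all genes passed in either direction (8.07% lower and 7.67% higher). Limma-voom on recovered reads gave 3, with the share of all genes under it not given here. The log2 ratio of females to males was negative for 9 of the 10 genes, with *Cd163* the exception, and for 51.2% of all genes. Its median was −0.40 over the 10 genes and −0.01 over all genes tested. No gene had ranges that stayed apart between the sexes, against 5.1% of all genes. In bulk tissue, fewer macrophages and less of a transcript per macrophage cannot be told apart.

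**Figure D1:**
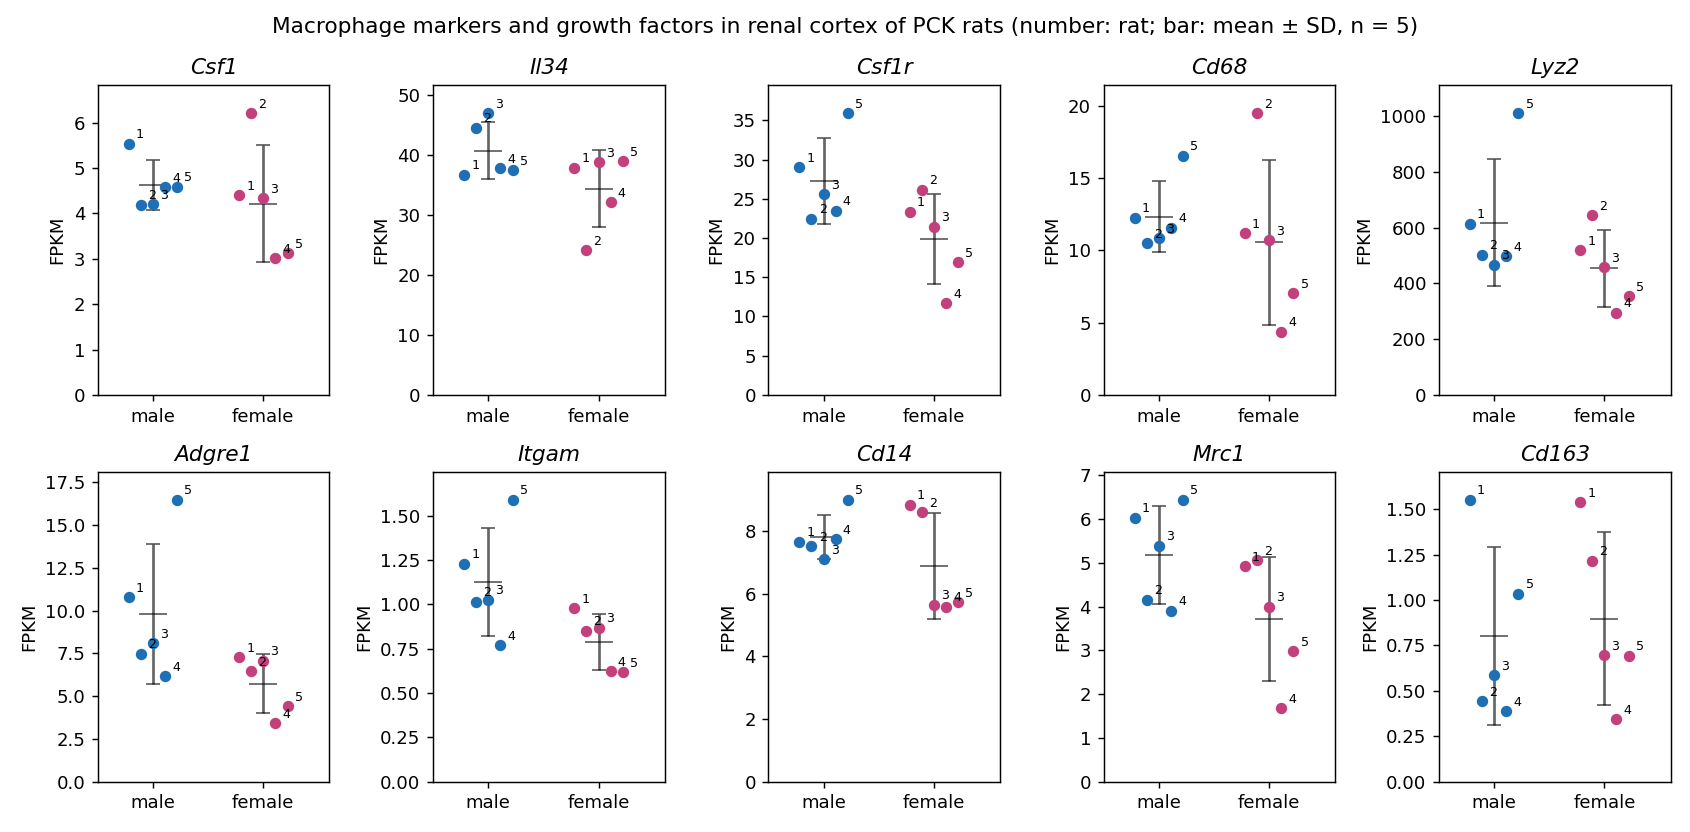
FPKM (vertical axes, each from 0) of the 10 genes in 5 male (blue) and 5 female (pink) PCK rats, numbered as in the sample labels, with the mean ± SD as bars. The sexes overlapped in every panel, male 5 was the highest rat for 6 genes and female 4 the lowest for 8.

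The growth factors were expressed at very different levels. Neither differed between the sexes past the limma adjusted p of 0.05, and for both the ranges of the sexes overlapped. *Csf1* (ENSRNOG00000018659, chromosome 2 of Rnor_6.0, 210522375 to 210550560), the classical macrophage colony-stimulating factor, was at 5.54, 4.19, 4.20, 4.58 and 4.58 FPKM in males 1 to 5. It was at 4.40, 6.21, 4.33, 3.02 and 3.12 FPKM in females 1 to 5. The females thus spanned both the highest and the lowest rats, with female 2 at the top and females 4 and 5 at the bottom. The means were 4.62 ± 0.549 in males and 4.22 ± 1.29 FPKM in females (SD, n = 5 each). The log2 ratio was −0.17, with a 95% interval from −0.58 to 0.24 (limma adjusted p = 0.722).

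*Il34* (ENSRNOG00000017602, chromosome 19, 40855433 to 40904121), the second ligand, was at 36.7, 44.5, 46.9, 37.7 and 37.4 FPKM in males 1 to 5. In females 1 to 5 it was at 37.8, 24.1, 38.8, 32.1 and 38.9 FPKM. Female 2 had the lowest value of all 10 rats for *Il34* and the highest for *Csf1*. The means were 40.6 ± 4.71 (males) and 34.3 ± 6.38 FPKM (females), a log2 ratio of −0.26 with a 95% interval from −0.56 to 0.05 (limma adjusted p = 0.412). Without female 2 the log2 ratio of *Il34* was −0.14 (limma adjusted p = 0.486) and that of *Csf1* was −0.32 (limma adjusted p = 0.265). The *Csf1* ratio was closer to 0 without male 1, female 4 or female 5, at −0.10, −0.07 and −0.08 (limma adjusted p of 0.887, 0.926 and 0.909).

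Per length, *Il34* transcripts outnumbered *Csf1* transcripts in every rat. The ratio of *Il34* to *Csf1* FPKM within a library was 6.62 to 11.2 in males (median 8.24) and 3.88 to 12.5 in females (median 8.95). Female 2 had the lowest ratio and female 5 the highest, and the sexes overlapped. Without female 2 the ratio was 8.59 to 12.5 in females.

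The receptor of both ligands, *Csf1r* (ENSRNOG00000018414, chromosome 18, 56414488 to 56458300), was at 29.0, 22.5, 25.6, 23.5 and 35.9 FPKM in males 1 to 5. In females 1 to 5 it was at 23.4, 26.2, 21.4, 11.7 and 16.9 FPKM. Females 3, 4 and 5 lay below the lowest male, while females 1 and 2 lay among the males. The means were 27.3 ± 5.44 (males) and 19.9 ± 5.71 FPKM (females), a log2 ratio of −0.49 with a 95% interval from −0.95 to −0.02 (limma adjusted p = 0.293). By the exact permutation test of the difference in means, two-sided, p was 0.0714. With each rat left out it ran from 0.0317 without female 2 to 0.151 without female 4 or male 5, and without female 4 the log2 ratio was −0.31. The smallest p that 5 rats against 5 allow in this test is 0.00794, and 14.8% of all genes had an exact p of at most 0.05.

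Among the general macrophage markers, *Adgre1* had the log2 ratio farthest from 0. *Adgre1* (ENSRNOG00000046254, chromosome 9, 9431860 to 9585865) encodes the F4/80 antigen, an adhesion receptor of tissue macrophages. It was at 10.8, 7.49, 8.09, 6.15 and 16.5 FPKM in males 1 to 5 and at 7.28, 6.45, 7.07, 3.42 and 4.42 FPKM in females 1 to 5. Of the males, 4 lay above the highest female, and male 4 lay within the female range. The means were 9.80 ± 4.10 and 5.73 ± 1.71 FPKM, a log2 ratio of −0.73 with a 95% interval from −1.35 to −0.11 (limma adjusted p = 0.232). The exact permutation p was 0.0556. With each rat left out it ran from 0.00794, the smallest that 4 rats against 5 can give, without male 4 to 0.151 without female 4, and it was at most 0.05 otherwise only without male 2, at 0.0476. The difference in mean FPKM, −4.07, was −2.40 without male 5 (exact permutation p = 0.111).

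*Cd68* (ENSRNOG00000037563, chromosome 10, 56268720 to 56270640), a lysosomal glycoprotein used to stain macrophages, was at 12.3, 10.5, 10.8, 11.6 and 16.6 FPKM in males 1 to 5. In females 1 to 5 it was at 11.2, 19.5, 10.7, 4.37 and 7.04 FPKM. The females held both the highest rat, female 2, and the lowest, female 4, so that their SD of 5.73 FPKM exceeded the 2.45 FPKM of males. The log2 ratio was −0.37 with a 95% interval from −1.09 to 0.34 (limma adjusted p = 0.643). Without female 2 it was −0.64 and without female 4 it was −0.10, with limma adjusted p of 0.213 and 0.918.

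*Lyz2* (ENSRNOG00000005825, chromosome 7, 60335969 to 60341264) encodes lysozyme, the secreted antibacterial enzyme of myeloid cells. It was at 614, 503, 466, 496 and 1010 FPKM in males 1 to 5 and at 519, 644, 458, 294 and 354 FPKM in females 1 to 5. Male 5 stood far above the other males, and its *Lyz2* reached a level that 18014 reads support. The means were 618 ± 226 and 454 ± 138 FPKM, a log2 ratio of −0.44 with a 95% interval from −1.0 to 0.13 (limma adjusted p = 0.456). Without male 5 the log2 ratio was −0.24 (limma adjusted p = 0.665).

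*Itgam* (ENSRNOG00000019728, chromosome 1, 199495298 to 199623960), the CD11b integrin that monocytes and neutrophils carry as well as macrophages, was at 0.771 to 1.59 in males and 0.617 to 0.978 FPKM in females. Of the males, 4 lay above every female, and male 4 was the exception. The log2 ratio was −0.45 with a 95% interval from −0.92 to 0.02 (limma adjusted p = 0.340), and the exact permutation p was 0.0635. With each rat left out that p ran from 0.0159 without male 4 to 0.135 without female 4 or female 5, and without male 5 the difference in mean FPKM went from −0.338 to −0.222 (exact permutation p = 0.111). The span of *Itgam* in the annotation encloses *Itgax*, a gene on the same strand, so reads of the pair could have been divided between them and the value of *Itgam* is uncertain.

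*Cd14*, *Mrc1* and *Cd163* encode receptors for microbial and scavenged ligands. *Cd14* (ENSRNOG00000017819, chromosome 18, 29560365 to 29562153), the co-receptor for lipopolysaccharide, was the steadiest of the 10 genes, with a 1.61-fold range over all rats. It lay between 7.11 and 9.0 FPKM in males. Females 1 and 2 were at 8.85 and 8.61 FPKM and the other females at 5.59 to 5.74 FPKM, below every male. Its log2 ratio was −0.21 with a 95% interval from −0.54 to 0.13 (limma adjusted p = 0.566).

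*Mrc1* (ENSRNOG00000018251, chromosome 17, 81352700 to 81433743), the mannose receptor CD206, was at 6.03, 4.16, 5.40, 3.91 and 6.44 FPKM in males 1 to 5. In females 1 to 5 it was at 4.92, 5.06, 4.0, 1.67 and 2.98 FPKM. The 3 highest rats were males and the 2 lowest were females 4 and 5. The log2 ratio was −0.54 with a 95% interval from −1.16 to 0.08 (limma adjusted p = 0.393), and without female 4 it was −0.29.

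*Cd163* (ENSRNOG00000010253, chromosome 4, 156752082 to 156785467), the receptor that clears haemoglobin bound to haptoglobin, did not follow the sexes. It was at 1.55, 0.442, 0.586, 0.388 and 1.03 FPKM in males 1 to 5 and at 1.54, 1.22, 0.695, 0.345 and 0.693 FPKM in females 1 to 5. Male 1 and female 1 were level at the top, and female 4 and male 4 were at the bottom. The log2 ratio was 0.17 with a 95% interval from −0.76 to 1.1 (limma adjusted p = 0.897), and it turned to −0.01 without male 4 and −0.05 without female 1. Its values rest on 26 to 110 reads per rat, and 26 reads carry an exact Poisson 95% interval from 17.0 to 38.1, which covers counting error only.

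**Figure D2:**
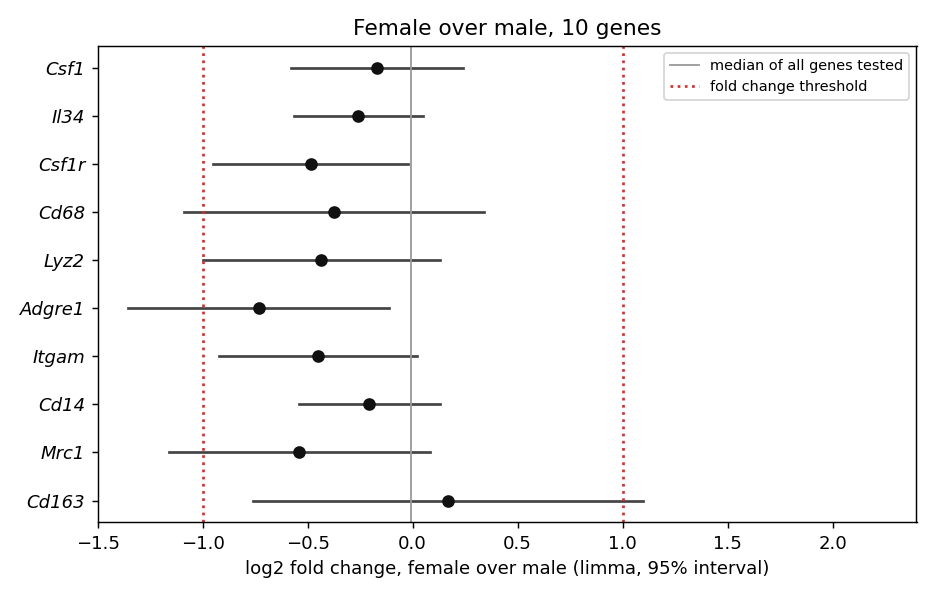
Log2 ratio of females over males (horizontal axis) for the 10 genes, as points with 95% limma intervals before adjustment, the grey line at the median of all genes tested and dotted lines at the fold change threshold. The points ran from −0.73 for *Adgre1* to 0.17 for *Cd163*, and the intervals of *Adgre1* and *Csf1r* lay below 0.

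In order of mean FPKM the genes were *Lyz2*, *Il34*, *Csf1r*, *Cd68*, *Adgre1*, *Cd14*, *Mrc1*, *Csf1*, *Itgam* and *Cd163*. *Lyz2* was 14.3 times the level of *Il34* and exceeded 99.3% of all genes tested, while *Itgam* and *Cd163* exceeded 23.7% and 22.3%. The step from *Lyz2* to *Il34* and that from *Csf1* to *Itgam* were clear of any overlap between rats. *Adgre1* and *Cd14* were not set apart by their spread, since *Adgre1* was the higher in 4 of 10 rats. The same held for *Mrc1* and *Csf1*, with *Mrc1* higher in 4 of 10 rats, and for *Itgam* and *Cd163*, with *Itgam* higher in 6.

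Set against *Csf1r* in the same library, *Mrc1* kept a nearly fixed proportion, with a ratio of 0.167 to 0.211 in males and 0.143 to 0.211 in females. The ratio of *Cd68* to *Csf1r* was 0.423 to 0.494 in males and 0.375 to 0.745 in females, with female 2 at the upper end. Without female 2 it was 0.375 to 0.499 in females. The ratio of *Itgam* to *Csf1r* was 0.0329 to 0.0451 and 0.0325 to 0.0534. *Cd163* varied most against *Csf1r*, from 0.0165 to 0.0534 in males and from 0.0296 to 0.0659 in females, a 3.99-fold range over the 10 rats. All of these ratios overlapped between the sexes.

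Rats of the same sex differed widely. Male 5 was the highest of the 10 rats for 6 genes, namely *Csf1r*, *Lyz2*, *Adgre1*, *Itgam*, *Cd14* and *Mrc1*. Female 4 was the lowest for 8 genes, all but *Itgam* and *Il34*, and was among the lowest 2 for all 10. Female 5 was among the lowest 2 for 7 genes. Over the 8 genes other than the ligands, the median deviation from the mean of the 10 rats was 0.64 on the log2 scale in male 5 and 0.36 in male 1. It was −0.95 in female 4 and −0.50 in female 5, while the other 6 rats lay between −0.08 and 0.25. Without female 4 the median log2 ratio of the 10 genes was −0.26, and without male 5 it was −0.28.

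**Figure D3:**
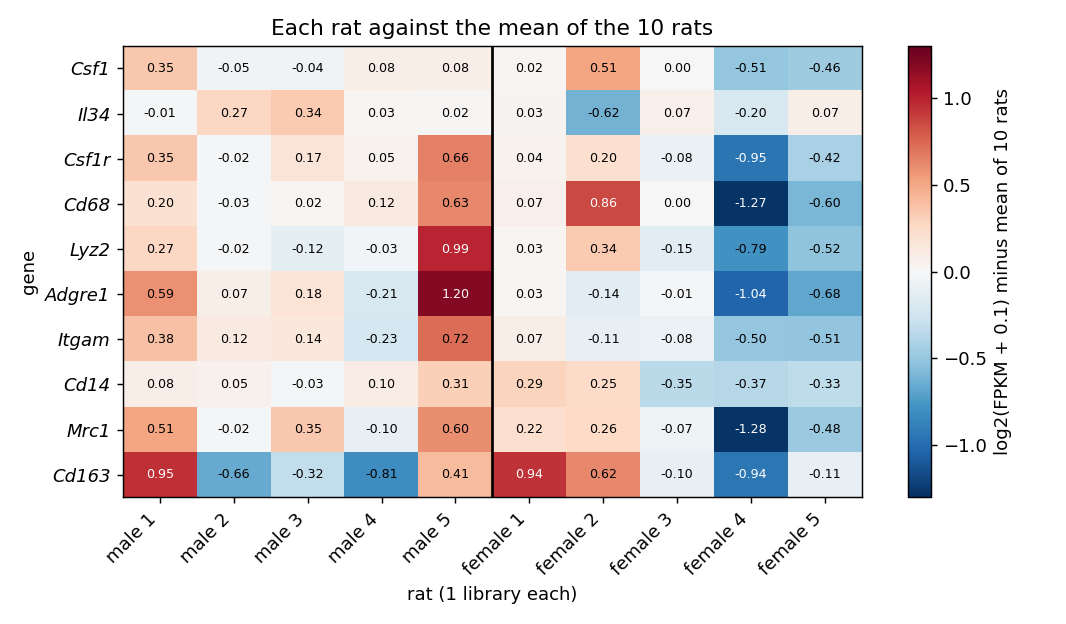
Deviation of each rat (columns) from the mean of all 10 rats, on the log2(FPKM + 0.1) scale, for the 10 genes (rows), with red above and blue below the mean. Male 5 was raised and female 4 lowered across the receptor and markers, and *Il34* did not follow, with its lowest value in female 2.

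The same rats stood out in lists of other leukocyte genes, whose part in the results above was not tested. For 11 genes shared by all leukocytes, such as *Ptprc*, the CD45 phosphatase, and *Coro1a*, the summed level was 166 to 328 in males and 88.9 to 274 FPKM in females, with male 5 highest and female 4 lowest. The 10 lymphocyte markers in the table summed to 38.7 to 77.9 in males and 19.0 to 63.6 FPKM in females, with the same rats at the ends. The 8 dendritic cell markers summed to 16.6 to 28.8 in males and 10.9 to 23.4 FPKM in females, again with male 5 highest and female 4 lowest. The 10 neutrophil markers summed to 0.934 to 14.3 in males and 0.905 to 4.10 FPKM in females, with *Cxcr1* listed at 0 in every rat. Of these 4 lists, no gene passed the limma adjusted p of 0.05, and 1, 2, 2 and 1 genes were lower at an unadjusted p under 0.05, with none higher.

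Outside the leukocytes, the tubule injury genes, which include *Clu*, *Lcn2* and *Havcr1*, summed to 705 to 882 in males and 238 to 1287 FPKM in females. Female 4 was the lowest rat and female 2 the highest. The 8 fibroblast markers summed to 296 to 381 in males and 101 to 301 FPKM in females, with female 4 lowest. Of these, *Col3a1*, a fibrillar collagen, fell from 81.8 ± 13.1 (males) to 39.5 ± 14.9 FPKM (females), a log2 ratio of −1.14 (limma adjusted p = 0.0477). Proximal tubule markers went the other way among rats, with the highest sum, 3887 FPKM, in female 4 and the lowest, 2071 FPKM, in male 5. Genes of red blood cells, taken as a rough gauge of blood left in the flushed tissue, summed to 109 to 453 in males and 87.3 to 503 FPKM in females, with female 4 highest. That list includes *Slc4a1*, at 28.5 ± 3.83 in males and 37.2 ± 6.22 FPKM in females (limma adjusted p = 0.189), whose source in this tissue was not tested.

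Across the 10 rats the markers moved together. With the mean of each sex subtracted, the Pearson correlation with *Csf1r* on the log2 scale was 0.97 for *Mrc1*, 0.94 for *Cd68*, 0.92 for *Lyz2* and 0.89 for *Adgre1*. It was 0.83 for *Cd163*, 0.80 for *Itgam* and 0.73 for *Cd14*. These values are descriptions over 10 libraries, each gene being read from the same mixture of cells at the same depth, and the median over the 12052 other genes with a symbol and 1 FPKM or more on average was −0.04. Without females 2 and 4, the rats farthest from the median in *Csf1r* once the sex means were subtracted, they ran from 0.60 for *Cd14* to 0.97 for *Adgre1* over 8 rats. Over all 10 rats, 10 of the 12052 genes had a higher correlation with *Csf1r* than *Mrc1* had, and 1146 a higher one than *Cd14* had. Among the genes outside the 10, those most like *Csf1r* were *Tnfrsf1b*, *Irf1*, *Gsdmd*, *Itgal* and *Cnp*, with correlations of 0.99, 0.99, 0.99, 0.98 and 0.98. *Tnfrsf1b* encodes a receptor of tumour necrosis factor, *Irf1* an interferon regulatory factor, *Gsdmd* the pore-forming gasdermin D and *Itgal* the CD11a integrin of leukocytes.

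The ligands parted company. *Csf1* followed its receptor, with a correlation of 0.79 over 10 rats and 0.57 without females 2 and 4. This was not particular to the pair. Of 12052 genes compared, 829 had a higher correlation with *Csf1r*, and *Csf1* was closer to *Cd68*, at 0.89. *Il34* did not follow the receptor, with a correlation of −0.30 with *Csf1r* and −0.63 with *Csf1* over 10 rats. Without female 2 and male 3, the rats farthest from the median in *Il34*, these were 0.08 and −0.19 over 8 rats, so the negative values rest largely on those rats. The 3 genes most like *Csf1* were *Elk3*, *Gdf11* and *Myadm*, with correlations of 0.98, 0.98 and 0.97. Those most like *Il34* were *Stard4*, *Dhx16* and *SNORA71*, with correlations of 0.94, 0.92 and 0.92.

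**Figure D4:**
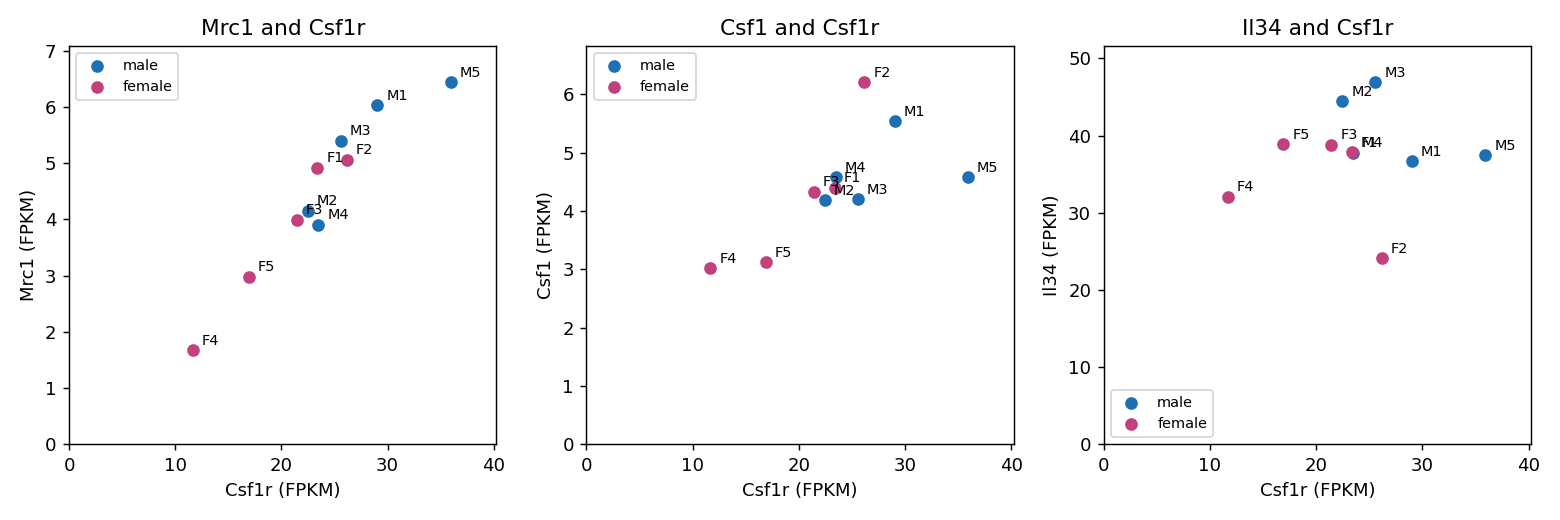
FPKM of *Mrc1*, *Csf1* and *Il34* (vertical axes) against FPKM of *Csf1r* (horizontal axes) in 10 rats, males in blue and females in pink. *Mrc1* rose with *Csf1r* from female 4 (11.7 FPKM of *Csf1r*) to male 5 (35.9 FPKM), *Csf1* did so with female 2 above the others, and *Il34* showed no such order.

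Because the markers moved together, the bases before their transcription starts were searched for the letters GAGGAA on either strand, the core to which the myeloid factor PU.1 (*Spi1*) binds. The RefSeq promoter table, on build GRCr8, held 8 of the 10 genes. In the 250 bases before the start, 7 of the 8 had the letters (*Adgre1*, *Cd14*, *Cd68*, *Csf1r*, *Itgam*, *Lyz2* and *Mrc1*), as did 23.3% of 33469 promoters of the same length. The longer form GAGGAAG, which contains it, was in 5 of the 8 and 10.2% of all promoters. The related letters GGAAGT were in 3 of 8 and 19.2%, CCAAT in 5 of 8 and 34.0%, and the TATA box letters TATAAA in none of the 8 and 12.9%. These 5 motifs were chosen after the expression values were seen, and a match is a description of letters and not a binding site. The letters did not sort the markers by likeness to *Csf1r*. The correlation was 0.83 for *Cd163*, which lacks them, and 0.80 and 0.73 for *Itgam* and *Cd14*, which have them. The 3 markers that followed *Csf1r* most closely are shown with *Cd163*, the gene without the letters, 5′ to 3′ on the strand of the gene, with GAGGAA or its reverse complement in capitals.
*Mrc1*, chr17:82157475-82157724, plus strand: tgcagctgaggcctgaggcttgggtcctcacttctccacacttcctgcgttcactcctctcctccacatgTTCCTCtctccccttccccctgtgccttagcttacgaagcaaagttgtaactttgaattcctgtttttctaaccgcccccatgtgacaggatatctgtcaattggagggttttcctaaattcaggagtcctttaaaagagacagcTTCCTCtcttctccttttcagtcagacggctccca
*Cd68*, chr10:54882442-54882691, minus strand: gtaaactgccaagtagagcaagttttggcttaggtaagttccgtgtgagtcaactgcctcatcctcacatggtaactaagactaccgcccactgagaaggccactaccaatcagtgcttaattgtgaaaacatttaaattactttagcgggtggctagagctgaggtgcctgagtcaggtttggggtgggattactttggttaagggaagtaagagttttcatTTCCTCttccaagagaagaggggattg
*Lyz2*, chr7:54798012-54798261, minus strand: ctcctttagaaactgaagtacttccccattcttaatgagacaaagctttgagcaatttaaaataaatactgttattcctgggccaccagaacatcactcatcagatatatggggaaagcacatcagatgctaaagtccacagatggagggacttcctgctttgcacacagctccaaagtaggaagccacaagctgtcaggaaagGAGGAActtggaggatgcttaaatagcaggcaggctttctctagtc
*Cd163*, chr4:158770524-158770773, plus strand: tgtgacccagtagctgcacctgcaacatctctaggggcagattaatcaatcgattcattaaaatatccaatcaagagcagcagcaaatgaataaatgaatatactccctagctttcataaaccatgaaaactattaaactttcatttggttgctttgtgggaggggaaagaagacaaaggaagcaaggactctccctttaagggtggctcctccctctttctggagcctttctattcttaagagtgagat
The letters began 180 and 35 bases before the start in *Mrc1*, 27 in *Cd68* and 46 in *Lyz2*.

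Of the other genes of the CSF1R pathway and of related colony-stimulating factors none passed the adjusted p. Their summed level was 208 to 234 FPKM (males) and 176 to 202 FPKM (females), without overlap, while the sums of every other list overlapped. The sum is weighted to abundant genes such as *Csf2rb* and *Tyrobp*. No gene of the list had ranges apart by itself, so the sum is not a result for the pathway. The list holds 16 genes, the other colony-stimulating factors and their receptors with adaptors, kinases and transcription factors of the pathway, of which 15 were tested in 16 rows, since *Grb2* is listed under 2 identifiers. None of the rows passed the adjusted p of 0.05 in limma, where 1.26% of all genes tested were higher and 1.14% lower in females. At an unadjusted p under 0.05, 6 rows were lower and 0 higher, 13 had a negative log2 ratio, and the median was −0.33. *Irf8*, a transcription factor of monocyte development, was at 13.8 ± 2.45 in males and 8.89 ± 2.50 FPKM in females (limma adjusted p = 0.137), and the kinase *Syk* at 4.42 ± 0.700 and 2.97 ± 0.753 FPKM (limma adjusted p = 0.140). *Tyrobp*, the adaptor DAP12, was at 49.2 ± 15.7 and 33.9 ± 9.50 FPKM (limma adjusted p = 0.303). *Csf2rb*, the shared chain of cytokine receptors, was the most abundant of the list at 64.5 ± 14.1 and 54.1 ± 13.9 FPKM (limma adjusted p = 0.590). *Spi1* itself was at 8.17 ± 1.05 and 6.85 ± 3.31 FPKM (limma adjusted p = 0.551).

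Of 17 genes of resident tissue macrophages, 15 were tested, with a median log2 ratio of −0.30. *Sall1* passed, rising from 13.7 ± 2.07 (males) to 20.9 ± 1.29 FPKM (females) (log2 ratio 0.61, limma adjusted p = 0.0118). *Sall1* is known as a gene of kidney development as well as of microglia, so it does not mark renal macrophages alone. The complement genes *C1qa* and *C1qc*, made largely by macrophages, were at 57.7 ± 23.7 and 59.3 ± 19.4 in males and 39.0 ± 12.7 and 47.2 ± 20.5 FPKM in females (limma adjusted p of 0.394 and 0.613). *Gas6* and *Maf*, the most abundant of the list, were at 76.5 ± 9.31 and 72.3 ± 24.0 in males and 82.5 ± 9.43 and 75.1 ± 18.8 FPKM in females (limma adjusted p of 0.679 and 0.900).

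Genes of recruited monocytes had the lowest median of the macrophage lists, −0.71 on the log2 scale over 10 genes, and none passed the limma adjusted p of 0.05, with 3 lower at an unadjusted p under 0.05. The log2 ratios farthest from 0 were −1.08 for *Cd44* and −1.03 for *Fn1* (limma adjusted p of 0.143 and 0.118). Which cells of the mixture these transcripts came from was not tested. *Ccl2*, the chemokine that draws monocytes, was at 11.7 ± 2.30 in males and 7.77 ± 3.65 FPKM in females (limma adjusted p = 0.284), and its receptor *Ccr2* at 1.48 ± 0.824 and 0.887 ± 0.926 FPKM (limma adjusted p = 0.471), on 1 to 13 reads a rat. Of 11 tested genes of lipid-laden and scar macrophages, none passed the limma adjusted p of 0.05, with a median of −0.20, 2 lower and 1 higher at an unadjusted p under 0.05. *Apoe*, the lipid carrier, came closest at 801 ± 77.9 and 582 ± 43.9 FPKM with no overlap (limma adjusted p = 0.0636). *Spp1*, osteopontin, which tubules also make, was the most abundant at 4867 ± 1442 and 3185 ± 1771 FPKM (limma adjusted p = 0.435).

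Activation genes were split into classical and alternative lists. Of 10 tested genes of classical activation none passed the limma adjusted p of 0.05, the median log2 ratio was −0.45, and 6 were lower at an unadjusted p under 0.05 with 0 higher. *Il1b*, the inflammatory cytokine, was at 4.50 ± 0.858 in males and 2.61 ± 0.965 FPKM in females (limma adjusted p = 0.0935), and *Irf5*, a transcription factor of this state, at 7.60 ± 0.313 and 5.42 ± 1.22 FPKM (limma adjusted p = 0.101). Of 11 tested genes of alternative activation the median was −0.22, and the count of them past the adjusted p is not reported here. Among them was *Il4r*, the receptor of interleukin 4, at 29.0 ± 3.62 and 21.4 ± 2.23 FPKM (limma adjusted p = 0.0678), and transglutaminase *Tgm2* at 133 ± 23.1 and 121 ± 19.3 FPKM (limma adjusted p = 0.745).

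Markers of cells other than leukocytes gave medians on either side of 0. The median log2 ratio was −0.69 for fibroblasts, −0.76 for tubule injury genes, 0.03 for endothelium, 0.13 for proximal tubule, 0.27 for podocytes, 0.34 for red cells and 0.52 for the distal nephron and collecting duct. It was −0.49 for genes of all leukocytes, −0.65 for lymphocytes, −0.42 for dendritic cells and −0.57 for neutrophils. Past the limma adjusted p of 0.05 were, beside *Col3a1*, the tubular calcium-binding protein *Calb1*, which rose from 139 ± 29.5 to 281 ± 71.9 FPKM (adjusted p = 0.0226), and the endocytic receptor *Cubn*, which rose from 50.0 ± 12.2 to 81.0 ± 11.9 FPKM (adjusted p = 0.0467). With each rat left out in turn, *Sall1* still passed. *Calb1* did not pass without male 2, male 3, male 4, female 3 or female 4, with adjusted p of up to 0.066. *Col3a1* did not pass without any 1 of the 5 males, female 1 or female 5, with adjusted p of up to 0.118. *Cubn* did not pass without male 1, 2, 3 or 5 or female 1, 3, 4 or 5, with adjusted p of up to 0.122.

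**Figure D5:**
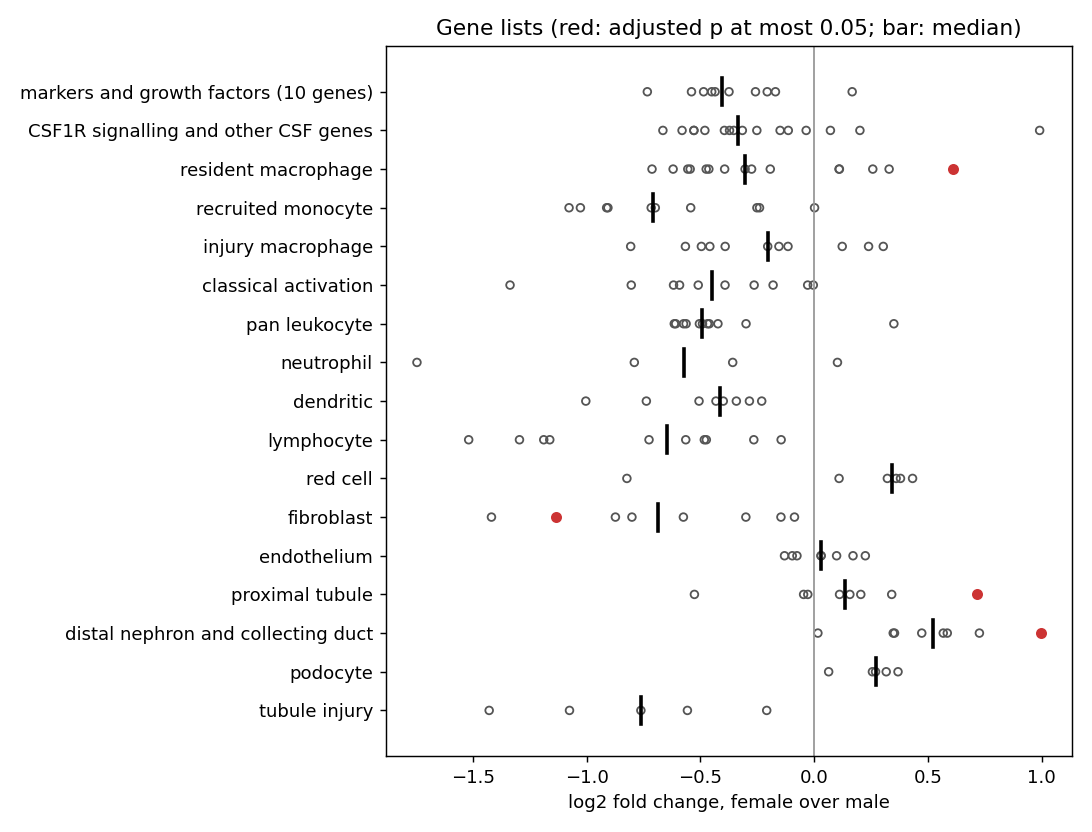
Log2 ratio of females over males (horizontal axis) for each tested gene of the 10 markers and growth factors and of 16 gene lists (rows), with medians as bars and genes past a limma adjusted p of 0.05 in red. The alternative activation list is not shown. The macrophage and leukocyte lists had medians between −0.71 and −0.20, and the red points were *Sall1*, *Col3a1*, *Cubn* and *Calb1*.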

How the data were processed

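Renal cortical RNA-seq libraries, 1 per rat, came from 5 male and 5 female PCK rats and were grouped by the sex in the sample labels. The authors' provider trimmed and mapped the reads (fastp and HISAT2 2.0.5, Ensembl Rnor_6.0), counted them with featureCounts 1.5.0-p3 according to the submitters' processing notes, which also name StringTie 1.3.3b, and deposited FPKM for each gene and library. Whether counting used strand is not stated. All per-sample columns of the table were used. Dividing each FPKM by the value of 1 read at the gene's deposited length gave whole reads (within 0.01) for 100% of values, which gives the depth. The deposited FPKM already carry a median-ratio scaling, since that factor was 1.01 in every library.

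Values were tested with limma 3.58.1 in R 4.3.3 (linear models with trended empirical Bayes variances) after adding a pseudocount of 0.1 and taking log2, for genes averaging 0.1 FPKM or more, with Benjamini-Hochberg adjustment over all of them. On this scale fold changes of low genes are understated. For single genes, mean FPKM was also compared by a two-sided exact permutation test. Other steps ran in Python 3.11.15 (scipy 1.17.1, pandas 2.3.3, numpy 2.4.6). The procedures were tested on simulated data. The members and lists were chosen with earlier results of these data known. Genes were named from the lists where they passed the adjusted p or were among the 2 most abundant of a list, though not all of either kind are given. *Irf8*, *Syk*, *Spi1*, *C1qa*, *C1qc*, *Ccl2*, *Ccr2*, *Cd44*, *Fn1*, *Apoe*, *Il1b*, *Ptprc*, *Slc4a1*, *Lcn2* and *Havcr1* were chosen after their values were seen. Replicate p-values measure the spread between rats, some of which are littermates. *Chil3*, *Hba-a1*, *Hba-a2*, *Klrb1a*, *Ly96*, *Nos2* and *Slc40a1* of the lists were not analysed here. Values of some other list genes are not reported here, though counts and medians over the lists include them. Likeness was taken as Pearson's correlation of log2 values after subtracting each sex mean.

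The alternatives were a pseudocount of 1 or 0.01, an unfiltered table, a minimum of 1 FPKM, median-ratio, quantile and total-read scaling, eBayes without trend or robust, the replicate number as a block, limma-voom on recovered reads, and leaving out each library.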

Additional observations from a re-analysis of the deposited data

Results flagged for a closer look

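*Lyz2* in male 5, at 1010 FPKM, lay far above the other males. The gap to the next male, at 614 FPKM, was 0.728 of the whole range of the males, above Dixon's critical value of 0.71 for 5 samples. This was 1 of 20 groups looked at, and chance flags about 1 in 20.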

How the results depend on the processing

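No alternative put any of the 10 genes past the adjusted p of 0.05 (limma). Over all alternatives the lowest adjusted p was 0.149, for *Csf1r* without female 2. The number of the 10 genes at an unadjusted p under 0.05 ran from 0 to 5, with 5 without female 2. The share of all genes under each alternative is not given here, so these counts cannot be set against it. *Cd163* was the 1 gene that turned direction, with log2 ratios of −0.047 to 0.43 and differences in mean FPKM of −0.0626 to 0.285 as each rat was left out. *Itgam* and *Cd163* fell under the filter at 1 FPKM. Of all genes tested, 109 were higher and 123 lower in females, against 65 and 72 with a pseudocount of 1, and 223 and 201 by the adjusted p alone. Of the list genes, 4 were higher and 1 lower. The count higher was 1 with the fold change threshold and 1 with the replicate block. The count lower was 0 without the filter, 0 with the replicate block, 2 with a filter at 1 FPKM, 2 with quantile normalization, 2 with robust eBayes and 3 with limma-voom. With each rat left out, 2 to 5 list genes were higher and 0 to 6 lower (6 without female 2 and 3 without female 3). The replicate number as a block gave 89 genes higher and 87 lower, and a log2 ratio of −0.49 for *Csf1r* (adjusted p = 0.319), and *Sall1*, *Calb1*, *Cubn* and *Col3a1* did not pass under it. *Col3a1* and *Cubn* also did not pass without the filter (adjusted p = 0.0670 and 0.0626), with quantile normalization (0.0502 and 0.0516) or with eBayes without trend (0.0789 and 0.0787), nor did *Col3a1* with scaling by total reads (0.0640). Rats with the same number shared no deviation, with correlations from −0.10 to 0.07, and not every rat correlated best with its own number, so the numbers do not pair the rats. With 5 rats a sex, the 95% intervals of the 10 genes were 0.612 (*Il34*) to 1.86 (*Cd163*) wide on the log2 scale, which limits what could be detected.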
